A study of Mus musculus with 18 samples.

Results

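A set of 10 genes of the aryl hydrocarbon receptor (AHR) and NRF2 pathways were followed through mouse organ fibroblasts that were either kept in culture or transplanted under the kidney capsule. They are *Ahr*, *Ahrr*, *Cyp1a1*, *Cyp1b1* and *Tiparp* on the AHR side and *Nqo1*, *Hmox1*, *Gclm*, *Txnrd1* and *Srxn1* on the NRF2 side. All 10 symbols were found among the 38924 gene identifiers of the count table, and all 10 were among the 16577 genes that passed the filter on low counts. The 10 genes were chosen from levels and changes measured in these same libraries, so their levels and differences are a description. No p is given for them, and where a call rule applied to all genes is counted over them, it supports nothing. Over the 6 groups, 4 of the 5 AHR genes were highest in cultured tail fibroblasts and *Cyp1b1* was lowest in tail cells, and 4 of the 5, all but *Cyp1a1*, were higher after transplantation in the heart. The NRF2 targets were lower after transplantation in all 3 organs without overlap of the libraries, except *Hmox1* in the heart, where they overlapped. Of all genes tested, 34.0%, 25.0% and 31.2% had every transplanted library below every cultured one in heart, kidney and tail. In the heart, 33.3% of all genes had every transplanted library above every cultured one.

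Heart, kidney and tail fibroblasts came from 10-week-old male mice with the Rosa mT/mG reporter on a C57BL/6 background, in which cells carry a red membrane tdTomato signal unless Cre has acted. No Cre was named, and all groups shared this genotype. After 10 days in culture one share of the cells, soaked into gelatin foam, was implanted beneath the renal capsule in syngeneic C57bl6/j recipients aged 10 to 11 weeks, and live CD45-;TdTomato+ cells were sorted 3 days later. The sorted samples are named HFs for heart, KFs for kidney and TFs for tail. The rest were replated for 3 more days as controls, named HFc, KFc and TFc, for which no sort was named at that step, so transplantation and sorting cannot be told apart. Each of the 6 groups had 3 libraries, numbered as replicates 1 to 3. The paper calls the replicates biological, while the labels do not say whether each came from separate donors, so p-values measure only the spread between these libraries. In these bulk samples, fewer cells of a type and less RNA per cell cannot be told apart.

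Library totals lay between 17927838 and 32245168 counts, and a gene was taken as detectable above 3 counts, which was between 0.089 and 0.180 CPM, the count per 1000000 of the scaled library size. Of 9 fibroblast markers, all 9 were above 3 counts in every library of 5 groups and 8 in every library of KFc. KFs replicate 3 stood apart. It had 1491.5 CPM of *Xist* against at most 0.404 CPM elsewhere, and its Y-linked genes summed to 0.722 CPM against 175 CPM or more in the other 17 libraries. Its summed fibroblast markers were at 19722 CPM, against 71804 and 94971 CPM in the other KFs libraries, and its summed epithelial markers at 118 CPM, against 3.78 and 7.84 CPM. Calls of the 10 genes that changed without this library are given both ways.

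AHR is a ligand-activated transcription factor that waits in the cytoplasm with HSP90 and other chaperones, enters the nucleus when bound by dioxin-like or tryptophan-derived compounds, and pairs with ARNT on xenobiotic response elements (XREs) of its target genes. Several of its targets feed back on it: AHRR competes for ARNT, and TIPARP modifies the receptor and lowers its activity. NRF2, encoded by *Nfe2l2*, is held back by KEAP1 until oxidants or electrophiles modify KEAP1, and then pairs with small MAF proteins on antioxidant response elements (AREs), where BACH1 is a competing repressor. Its targets supply glutathione, thioredoxin, NADPH and heme breakdown.

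Upstream sequence was read from RefSeq promoter windows on GRCm38.p6. They held 10 windows for 8 of the 10 genes, 3 of them for *Txnrd1*, and the 250 bases before each start site were searched on both strands. The XRE core GCGTG was present before 7 of the 8 genes, *Cyp1a1*, *Ahrr*, *Tiparp*, *Cyp1b1*, *Gclm*, *Txnrd1* and *Srxn1*, and in 28.2% of all 32851 windows. The longer form TNGCGTG, which contains that core, was found before *Ahrr* and in 4.1% of windows. The ARE core TGACNNNGC was found before *Gclm* and at 1 start of *Txnrd1*, and in 10.2% of windows. Only this form of the ARE core, with C after TGA, was searched. The sequence TGAGTCA, a core shared by AP-1 and NF-E2 type factors, occurred at 2 places before *Srxn1* and in 4.46% of windows. These matches are descriptions of letters only. In all, 4 windows are shown, the 150 bases before the start of a pair of AHR targets and of a pair of NRF2 targets in which some of these motifs were found, to show where the matches lie. They run 5′ to 3′ on the strand of the gene, and capitals mark every match to these 4 motifs on either strand.
Cyp1a1, chr9:57697463-57697612, plus strand: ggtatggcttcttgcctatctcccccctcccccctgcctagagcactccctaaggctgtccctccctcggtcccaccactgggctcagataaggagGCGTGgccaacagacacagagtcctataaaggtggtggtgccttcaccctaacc
Ahrr, chr13:74292332-74292481, minus strand: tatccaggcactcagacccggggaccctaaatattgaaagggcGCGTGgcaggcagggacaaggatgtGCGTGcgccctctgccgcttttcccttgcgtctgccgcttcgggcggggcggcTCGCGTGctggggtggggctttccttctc
Gclm, chr3:122245407-122245556, plus strand: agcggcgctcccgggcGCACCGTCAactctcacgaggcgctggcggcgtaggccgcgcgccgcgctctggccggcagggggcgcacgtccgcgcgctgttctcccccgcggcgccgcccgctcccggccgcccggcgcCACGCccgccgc
Srxn1, chr2:152105374-152105523, plus strand: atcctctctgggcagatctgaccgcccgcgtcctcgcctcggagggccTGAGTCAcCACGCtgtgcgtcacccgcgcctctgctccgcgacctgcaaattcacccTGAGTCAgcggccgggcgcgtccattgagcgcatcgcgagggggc
The *Cyp1a1* window had 1 XRE core, 54 bases before the start, and the *Ahrr* window had 3, at 107, 82 and 27 bases. In *Gclm* the ARE core lay 134 bases before the start on the opposite strand, and in *Srxn1* the TGAGTCA matches lay at 102 and 45 bases. The *Srxn1* match at 45 bases is followed by GC, so it also has the form of the ARE core with G after TGA. That form was not searched, and its share of windows was not counted.

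The receptor gene *Ahr* (ENSMUSG00000019256, chr12:35497974-35535038 on GRCm38, minus strand) was at 94.5, 110 and 97.7 CPM in TFc, far above HFc (10.1, 9.85 and 11.2 CPM) and KFc (17.1, 16.7 and 16.5 CPM). After transplantation it was at 60.8, 42.3 and 50.2 CPM in HFs, at 37.1, 11.3 and 27.4 CPM in KFs and at 56.5, 77.7 and 65.7 CPM in TFs. Every HFs library was above every HFc library and every TFs library was below every TFc library, while the kidney groups overlapped. The HFs mean was 4.93-fold that of HFc (log2 fold change 2.30, SE 0.29), and the TFs mean was 1.51-fold lower than that of TFc (log2 fold change -0.59, SE 0.27). In the kidney the log2 fold change was 0.59 (SE 0.28). By group mean the order was TFc, TFs, HFs, KFs, KFc and HFc, and within it TFs overlapped with HFs, and KFs with KFc.

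*Ahrr* (ENSMUSG00000021575, chr13:74211118-74292331, minus strand), the AHR repressor that is itself an AHR target, showed the widest contrast between organs in culture of the 9 genes with counts in every group. It was at 48.9, 47.4 and 48.2 CPM in TFc, but at 0.765, 0.846 and 0.835 CPM in HFc, where it had between 17 and 25 counts a library, and at 2.31, 2.2 and 1.2 CPM in KFc. Cultured tail cells thus held 59.1 times the level of cultured heart cells and 25.3 times that of cultured kidney cells. After transplantation *Ahrr* was at 6.21, 8.63 and 9.12 CPM in TFs, 6.03-fold below TFc (log2 fold change -2.59, SE 0.24). HFs, at 2.53, 1.85 and 2.77 CPM, were 2.92-fold above HFc (log2 fold change 1.54, SE 0.28), with no overlap in either organ. KFs had 2.22, 1.57 and 1.12 CPM and overlapped with KFc (log2 fold change -0.21, SE 0.26).

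*Cyp1a1* (ENSMUSG00000032315, chr9:57687928-57703824, plus strand) encodes the cytochrome P450 that is the classical readout of AHR activity. Its reads came almost wholly from cultured tail fibroblasts, with 89, 43 and 62 counts (2.64, 1.69 and 2.72 CPM) in TFc. None was counted in any TFs library, so TFs were at least 16.6-fold lower, taking a floor of 3 counts per library. HFc replicate 3 had 2 counts, KFc replicate 3 had 4 counts and KFs replicate 3 had 2 counts, and the other libraries of those groups and all HFs libraries had none. Summed over libraries, TFc held 50.6 times the level of KFc (95% exact counting interval 19.5 to 188) and 91.5 times that of HFc (25.0 to 761). The intervals cover counting error only. Outside TFc, at most 1 library of a group was above 3 counts, so no fold is given between those groups.

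*Cyp1b1* (ENSMUSG00000024087, chr17:79701537-79715061, minus strand), a P450 of mesenchymal cells that metabolizes steroids, retinoids and polycyclic hydrocarbons, had the opposite order of organs. It was lowest in the tail, at 136, 123 and 138 CPM in TFc and 160, 122 and 102 CPM in TFs, which overlapped (log2 fold change -0.05, SE 0.23). Cultured heart and kidney cells overlapped, at 331, 350 and 341 CPM and at 329, 354 and 341 CPM. HFs reached 761, 699 and 994 CPM, 2.40-fold above HFc with no overlap (log2 fold change 1.26, SE 0.23). KFs had 721, 572 and 306 CPM, with the lowest value in replicate 3, and overlapped with KFc (log2 fold change 0.64, SE 0.23). Without that replicate the KFs mean was 647 CPM instead of 533 CPM.

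*Tiparp* (ENSMUSG00000034640, chr3:65528410-65555518, plus strand), the mono-ADP-ribosyltransferase that acts back on AHR, had close mean levels in the 3 transplanted groups when all libraries were used. HFs had 45.7, 46.2 and 61.6 CPM, KFs had 57.4, 60.8 and 36.7 CPM and TFs had 65.6, 49.0 and 40.8 CPM, with means of 51.2, 51.6 and 51.8 CPM. Without KFs replicate 3, the lowest of the 9, the KFs mean was 59.1 CPM. In culture the organs stood apart without overlap, at 16.3, 18.2 and 19.0 CPM in HFc, 23.9, 23.1 and 25.3 CPM in KFc and 75.3, 74.4 and 77.5 CPM in TFc. Transplanted cells were therefore 2.87-fold higher in the heart (log2 fold change 1.52, SE 0.19), 2.14-fold higher in the kidney (1.10, SE 0.18) and 1.46-fold lower in the tail (-0.55, SE 0.18). No pair of transplanted and cultured groups overlapped. Within groups *Tiparp* and *Cyp1b1* deviated together, with a correlation of 0.90 between their deviations from the group means over 18 libraries. It was 0.83 without KFs replicate 3, as a description over libraries that share their preparation. This pair was picked by its value, the highest over all libraries among all pairs of the genes followed. The other pairs on the AHR side lay between -0.61 (*Ahrr* and *Cyp1a1*) and 0.42 (*Ahrr* and *Cyp1b1*), so AHR genes did not deviate together as a set.

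**Figure D1:**
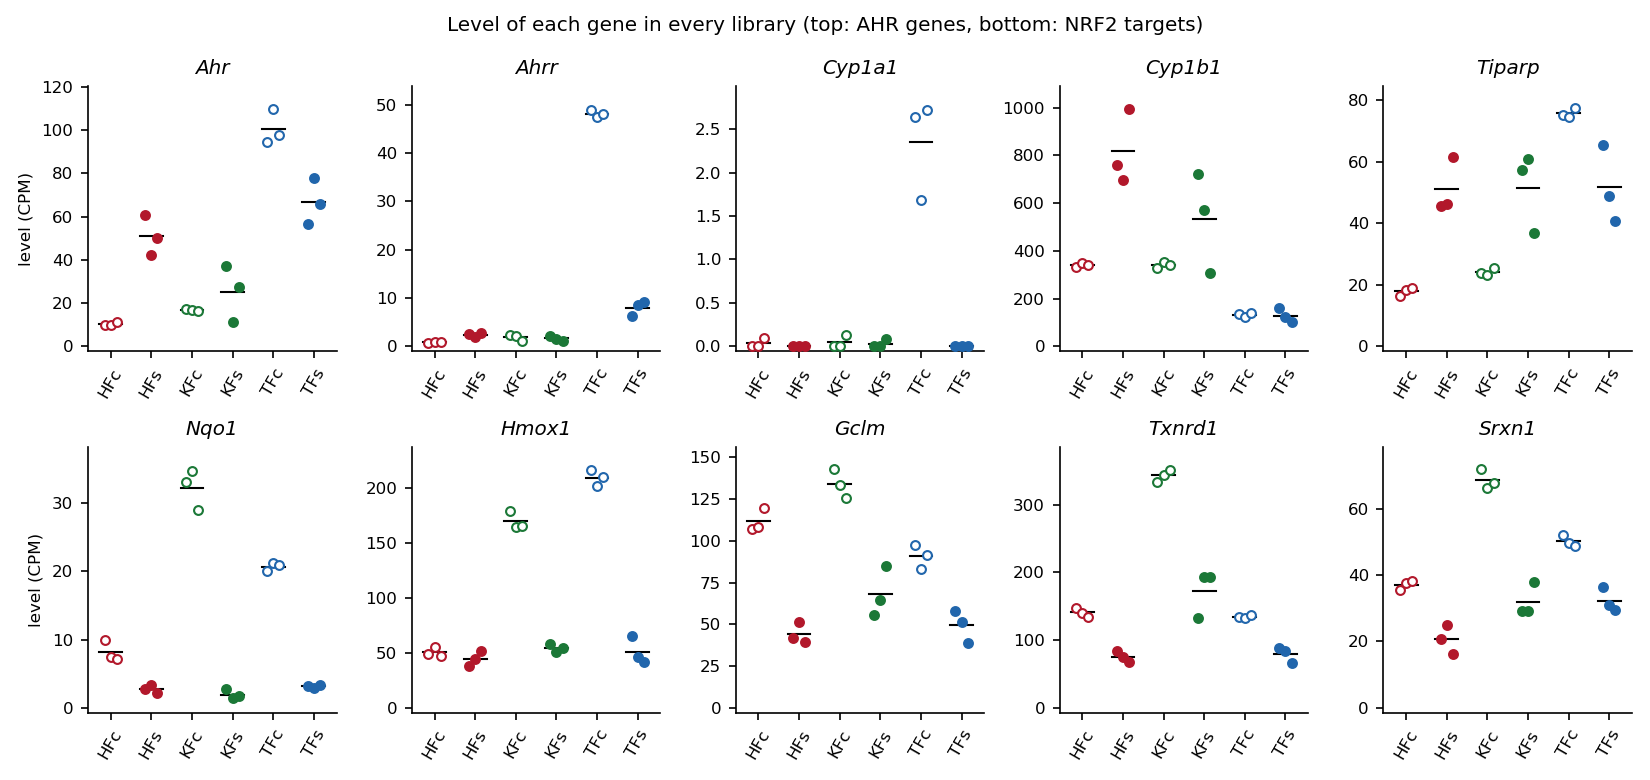
Level in CPM (vertical axes, linear and starting near 0) of the 10 genes in each of the 18 libraries, by group. Points are single libraries, open for cultured and filled for transplanted, and lines are means of 3. *Cyp1a1* was counted above 3 reads in all TFc libraries and in 1 library outside them, *Tiparp* came to means of 51.2, 51.6 and 51.8 CPM in HFs, KFs and TFs (59.1 CPM in KFs without replicate 3), and *Nqo1* was at or below 3.39 CPM in every transplanted library.

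On the NRF2 side *Nqo1* (ENSMUSG00000003849, chr8:107388225-107403206, minus strand) had the largest fall with transplantation in each organ. It encodes a quinone reductase and is a target of NRF2 and of AHR. Levels in culture were 10.0, 7.51 and 7.17 CPM in HFc, 33.1, 34.7 and 29.0 CPM in KFc and 20.0, 21.2 and 20.9 CPM in TFc. All transplanted libraries were below the lowest cultured one, with 2.77, 3.39 and 2.13 CPM in HFs, 2.71, 1.47 and 1.68 CPM in KFs and 3.26, 2.95 and 3.35 CPM in TFs. The KFs mean was 16.5-fold below KFc (log2 fold change -4.05, SE 0.22), the TFs mean 6.49-fold below TFc (-2.70, SE 0.21) and the HFs mean 2.98-fold below HFc (-1.58, SE 0.21).

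*Hmox1* (ENSMUSG00000005413, chr8:75093621-75100589, plus strand) encodes heme oxygenase 1, which opens heme to biliverdin, iron and carbon monoxide, and is abundant in macrophages as well as in stressed fibroblasts. KFc had 179, 165 and 166 CPM and TFc 217, 202 and 210 CPM, whereas HFc had 48.7, 55.3 and 47.4 CPM. The transplanted groups all lay near the HFc level, with 38.2, 44.8 and 51.4 CPM in HFs, 57.8, 50.9 and 54.2 CPM in KFs and 65.4, 45.9 and 41.9 CPM in TFs. The kidney groups did not overlap and KFs were 3.13-fold lower (log2 fold change -1.65, SE 0.14). The tail groups did not overlap either and TFs were 4.10-fold lower (-2.04, SE 0.14), while the heart groups overlapped (-0.17, SE 0.14).

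Macrophage markers moved in the same 2 organs. The sum of 9 macrophage markers was 442 to 473 CPM in KFc and 12.7 to 147 CPM in KFs, 183 to 211 CPM in TFc and 38.6 to 45.8 CPM in TFs, and 97.2 to 112 CPM in HFc against 94.0 to 159 CPM in HFs. All 9 were above 3 counts in every library of HFc, HFs, KFc and TFs, 8 in TFc and 7 in KFs. *Adgre1*, which encodes the F4/80 antigen, was at 21.0, 23.2 and 21.5 CPM in KFc, at 4.08 and 1.76 CPM in KFs replicates 1 and 2 and had no count in replicate 3. At an edgeR adjusted p under 0.05 and a log2 fold change below -1, 6 of the 9 markers were lower in the kidney (all genes 7.99%). The same held for 6 in the tail (5.53%). *Ptprc*, *Itgam* and *Fcgr1* were not called there, and *Fcgr1* had a log2 fold change of 1.41 in the tail. In the heart 0 of the 9 were called. The transplanted cells had passed a CD45- sort, which is meant to remove leukocytes. *Ptprc*, the gene of CD45, was at 3.73, 7.89 and 11.7 CPM in HFs against 5.36, 5.42 and 5.45 CPM in HFc. In KFs replicate 3, where the macrophage sum was 12.7 CPM, *Hmox1* was at 54.2 CPM, between the other KFs libraries. The part of macrophage RNA in the *Hmox1* difference was not tested.

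**Figure D2:**
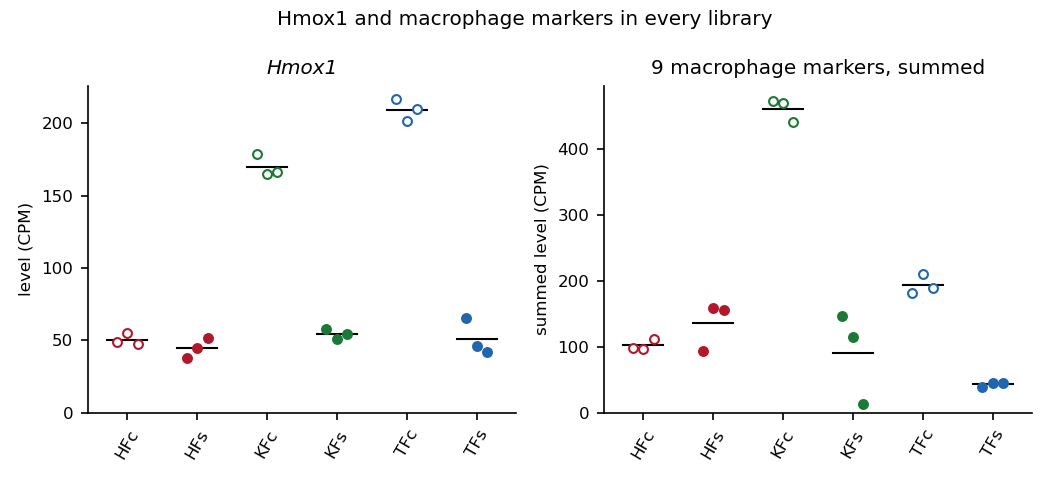
*Hmox1* (left) and the summed level of 9 macrophage markers (right) in each library, in CPM on linear axes from 0; open points are cultured, filled points transplanted libraries and lines are means of 3. Both are highest in KFc and TFc, at 165 CPM or more for *Hmox1* and 183 CPM or more for the markers, and KFs replicate 3 has the lowest marker sum, 12.7 CPM, with *Hmox1* at 54.2 CPM.

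*Gclm*, *Txnrd1* and *Srxn1* were lower after transplantation in every organ, by smaller and more even amounts, and in none of the 9 pairs of groups did transplanted and cultured libraries overlap. Among all genes, the shares with every transplanted library below every cultured one were the 34.0%, 25.0% and 31.2% given above. *Gclm* (ENSMUSG00000028124, chr3:122245557-122270732, plus strand), the modifier subunit of the enzyme that limits glutathione synthesis, was at 107, 108 and 120 CPM in HFc and 42.1, 51.3 and 39.6 CPM in HFs. In the kidney it was at 143, 133 and 126 CPM in KFc and 55.3, 64.4 and 85.1 CPM in KFs, with the highest value in replicate 3, and in the tail at 97.3, 83.4 and 91.6 CPM in TFc and 58.3, 51.6 and 38.8 CPM in TFs. The log2 fold changes were -1.33 (SE 0.16), -0.97 (SE 0.16) and -0.87 (SE 0.16) in heart, kidney and tail. A pseudogene, *Gm6061*, shares 492 bases with *Gclm* on the same strand, so reads there may be split between them.

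*Txnrd1* (ENSMUSG00000020250, chr10:82833951-82897712, plus strand), the cytosolic thioredoxin reductase, was highest in kidney cells in both states. It was at 334, 344 and 352 CPM in KFc and 133, 193 and 193 CPM in KFs, at 148, 141 and 134 CPM in HFc and 84.0, 75.1 and 67.2 CPM in HFs, and at 134, 132 and 138 CPM in TFc and 88.6, 83.6 and 66.6 CPM in TFs. *Srxn1* (ENSMUSG00000032802, chr2:152105516-152111376, plus strand), the sulfiredoxin that restores oxidized peroxiredoxins, was at 71.9, 66.2 and 67.8 CPM in KFc and 29.1, 29.3 and 37.8 CPM in KFs. It was at 35.6, 37.5 and 38.2 CPM in HFc and 20.6, 25.1 and 16.1 CPM in HFs, and at 52.2, 49.7 and 48.6 CPM in TFc and 36.4, 30.9 and 29.6 CPM in TFs. The log2 fold changes in heart, kidney and tail were -0.90 (SE 0.13), -0.99 (SE 0.13) and -0.76 (SE 0.13) for *Txnrd1* and -0.85 (SE 0.14), -1.10 (SE 0.14) and -0.64 (SE 0.14) for *Srxn1*. *Gclm* and *Srxn1* also deviated together within groups, with a correlation of 0.80 over 18 libraries and 0.73 without KFs replicate 3. This pair too was picked by its value, the next highest after *Tiparp* and *Cyp1b1*. The other pairs on the NRF2 side lay between -0.39 (*Nqo1* and *Txnrd1*) and 0.66 (*Gclm* and *Txnrd1*).

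Compared per length of exon, so that genes could be set beside each other, *Cyp1b1* or *Hmox1* was the highest of the 10 in every group and *Ahrr* and *Cyp1a1* the lowest. *Cyp1b1* led in HFc, HFs and KFs, at 58.3, 140 and 91.3 CPM per kilobase, and *Hmox1* in KFc, TFc and TFs, at 97.0, 120 and 29.2 CPM per kilobase. *Ahr* itself was at 16.3 CPM per kilobase in TFc and 1.68 in HFc.

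The differences were also read against a common call rule, an adjusted p under 0.05 and a log2 fold change beyond 1 in either direction in edgeR's quasi-likelihood fit. In the heart, 4 of the 10 genes were called higher (*Ahr*, *Ahrr*, *Cyp1b1* and *Tiparp*), where 18.3% of all 16577 genes were, and 2 lower (*Nqo1* and *Gclm*), where 9.33% of all genes were. In the kidney, 1 was called higher (*Tiparp*, all genes 14.7%) and 3 lower (*Nqo1*, *Hmox1* and *Srxn1*, all genes 7.99%). In the tail, 4 were called lower (*Ahrr*, *Cyp1a1*, *Nqo1* and *Hmox1*), where 5.53% of all genes were. None of the 10 had a positive log2 fold change in the tail, where 50% of all genes had one, so none could be called higher, as 11.0% of all genes were. Since the 10 genes were chosen on these values, nothing is read from the counts. Without KFs replicate 3, *Gclm* (log2 fold change -1.21) and *Txnrd1* (-1.12) were called lower in the kidney as well, which made 6 called genes instead of 4. Without KFs replicate 2 *Tiparp* (0.92) was not called there. The median log2 fold change of the 10 genes was -0.51 in the heart, -0.87 in the kidney and -0.82 in the tail, beside 0.05, 0.09 and 0 for all genes.

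**Figure D3:**
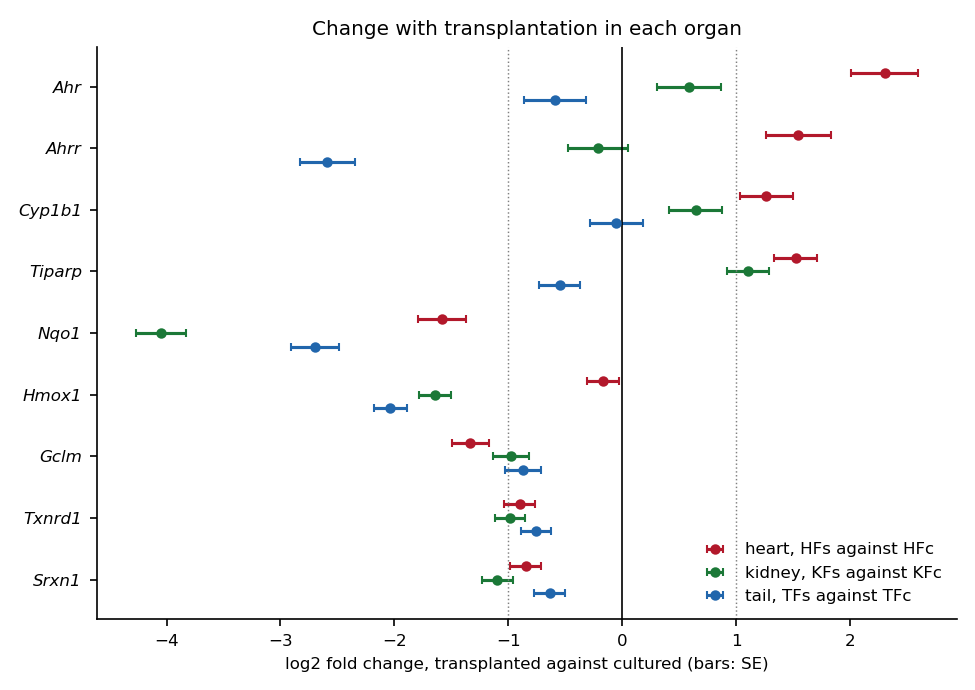
Log2 fold change of transplanted against cultured cells (horizontal axis) with its SE (bars) for 9 of the genes in heart, kidney and tail, from 3 libraries a group; dotted lines mark a log2 fold change of 1 in either direction. *Cyp1a1* is left out because TFs and HFs had no counts. *Ahr*, *Ahrr* and *Tiparp* lie to the right in the heart (2.30, 1.54 and 1.52) and to the left in the tail (-0.59, -2.59 and -0.55), and *Gclm*, *Txnrd1* and *Srxn1* lie to the left in every organ.

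Organs were compared within each state at an adjusted p under 0.05. In culture, 8 of the 10 genes were called between HFc and TFc (all genes 41.9%), with *Cyp1b1* higher and *Ahr*, *Ahrr*, *Cyp1a1*, *Tiparp*, *Nqo1*, *Hmox1* and *Srxn1* lower in the heart. Between KFc and TFc, 9 were called (all genes 36.4%), with *Cyp1b1*, *Nqo1*, *Gclm*, *Txnrd1* and *Srxn1* higher in the kidney and *Ahr*, *Ahrr*, *Cyp1a1* and *Tiparp* lower. Between HFc and KFc, 5 were called, all lower in the heart (*Ahrr*, *Nqo1*, *Hmox1*, *Txnrd1* and *Srxn1*, all genes 29.2%). Without KFs replicate 3 there were 6, with *Tiparp* (log2 fold change -0.48) added, although that library is in neither group and enters only through the shared fit.

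With all libraries used, fewer of the 10 genes were called after transplantation in each contrast. Between heart and kidney this was only 4 against 5 genes, while the share of all genes called rose from 29.2% to 33.2%. Between HFs and TFs, 3 of the 10 genes were called (*Cyp1b1* higher, *Ahrr* and *Srxn1* lower in HFs, all genes 23.1%). Between KFs and TFs there were 6 (*Cyp1b1*, *Gclm* and *Txnrd1* higher, *Ahr*, *Ahrr* and *Nqo1* lower in KFs, all genes 29.1%), and in 4 without KFs replicate 3, when *Gclm* (log2 fold change 0.28) and *Nqo1* (-0.63) were not called. Between HFs and KFs there were 4 (*Ahr* higher, *Gclm*, *Txnrd1* and *Srxn1* lower in HFs, all genes 33.2%). Without KFs replicate 1 this became 7, with *Ahrr* (0.81), *Cyp1b1* (0.89) and *Nqo1* (0.80) also higher in HFs.

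The distance between organs was described by the ratio of the highest to the lowest of the 3 organ means. It was smaller after transplantation for 7 of the 9 genes that had counts in all groups, which was also so for 59.6% of the 15862 tested genes with a ratio in both states. For *Ahrr* the ratio was 59.1 in culture and 4.87 after transplantation, for *Ahr* 9.70 and 2.64, for *Tiparp* 4.24 and 1.01 (1.15 without KFs replicate 3), for *Hmox1* 4.15 and 1.21 and for *Nqo1* 3.92 and 1.63. *Cyp1b1* went the other way, from 2.58 to 6.40. *Gclm* had 1.48 and 1.54, and 1.35 after transplantation when KFs replicate 3 was left out, *Txnrd1* 2.55 and 2.29 and *Srxn1* 1.85 and 1.57. The median ratio over all genes was 1.59 in culture and 1.50 after transplantation.

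**Figure D4:**
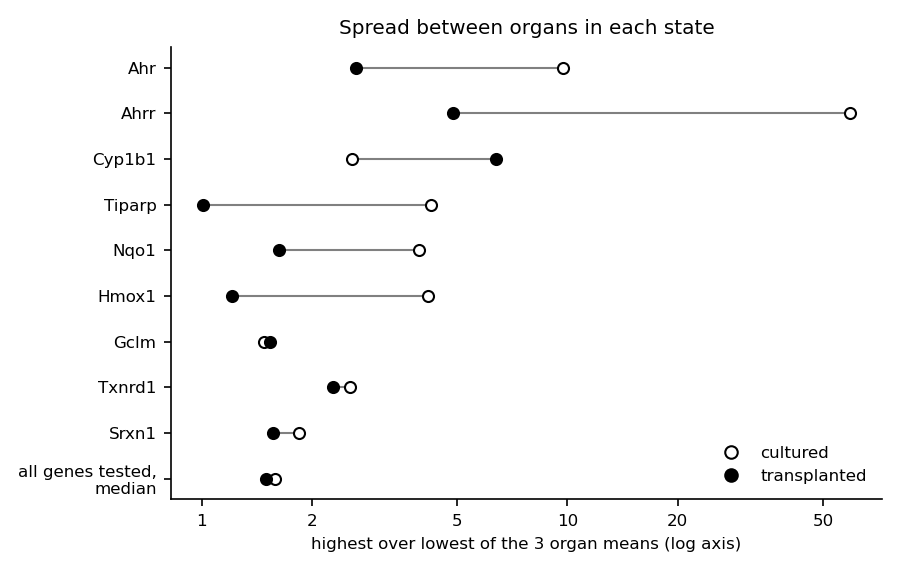
Highest over lowest of the 3 organ means (horizontal axis, logarithmic) for 9 genes and, as a median, for all genes tested; open points are cultured and filled points transplanted groups. *Ahrr* moves from 59.1 to 4.87 and *Tiparp* from 4.24 to 1.01 (1.15 without KFs replicate 3), while *Cyp1b1* moves from 2.58 to 6.40.

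The change with transplantation was also compared between organs, as the difference of the log2 fold changes at an adjusted p under 0.05. Between heart and tail, 6 of the 10 genes were called (all genes 22.8%), between kidney and tail 3 (all genes 11.1%) and between heart and kidney 4 (all genes 26.2%). *Ahrr* and *Nqo1* were called in all 3, and *Gclm*, *Txnrd1* and *Srxn1* in none of them. Without KFs replicate 3 the kidney and tail contrast had 5 called genes, since *Cyp1b1* (0.95) and *Srxn1* (-0.62) were added.

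Of the regulators of both pathways, 4 had been fixed to be named. These and the other pathway genes below were listed with earlier results of these data known, so their p-values and calls are descriptions. Those named for the largest rises and falls were picked by their values. *Arnt*, the partner of AHR, was at 72.4, 64.9 and 75.5 CPM on average in HFc, KFc and TFc and at 101, 79.4 and 91.1 CPM in HFs, KFs and TFs. Its log2 fold changes were 0.48 (SE 0.10), 0.29 (SE 0.10) and 0.27 (SE 0.10), with edgeR adjusted p of 0.00066, 0.0225 and 0.0388, all under the fold limit. *Nfe2l2*, which encodes NRF2, had log2 fold changes of -0.01 (SE 0.10) in the heart, -0.44 (SE 0.10) in the kidney and -0.24 (SE 0.10) in the tail, with edgeR adjusted p of 0.969, 0.00198 and 0.0761. *Keap1* had log2 fold changes of -0.07, -0.08 and 0.00 (SE 0.12 in each), with edgeR adjusted p of 0.65, 0.602 and 0.984. *Bach1*, the repressor that occupies AREs and is released by heme, rose in all 3 organs. It was at 29.9, 34.2 and 31.8 CPM in HFc and 91.0, 74.3 and 89.0 CPM in HFs, at 45.2, 56.7 and 52.3 CPM in KFc and 148, 126 and 117 CPM in KFs, and at 33.8, 34.3 and 32.6 CPM in TFc and 81.9, 82.7 and 71.3 CPM in TFs. Its log2 fold changes were 1.41, 1.34 and 1.23 (SE 0.11 in each), with edgeR adjusted p of 9.01e-08, 1.98e-07 and 8.75e-07.

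The lists of other pathway genes held 72, these 4 included, and 70 were tested. By the same rule 10 rose and 19 fell in the heart, 8 rose and 14 fell in the kidney and 9 rose and 10 fell in the tail. Without KFs replicate 3, 7 rose and 20 fell in the kidney. Of all genes 18.3% were called higher and 9.33% lower in the heart, 14.7% and 7.99% in the kidney and 11.0% and 5.53% in the tail. The median log2 fold change of the 70 was -0.40, -0.32 and -0.22, beside 0.05, 0.09 and 0 for all genes. Of 9 reductases and other detoxifying enzymes, 4 fell in the heart, 4 in the kidney and 3 in the tail, among them *Ephx1* and *Esd* in every organ, and 1, *Akr1b8*, rose in the tail. Of 6 genes that supply NADPH, 3 fell in the heart (*G6pdx*, *Taldo1* and *Tkt*) and 1 in the kidney (*Me1*). Of 7 genes of heme and iron handling, 3 fell in the kidney (*Ftl1*, *Blvrb* and *Slc48a1*), 1 fell in the tail (*Slc48a1*) and 1 rose in the heart (*Fth1*). Of 6 AHR partners, 3 fell in the heart (*Arnt2*, *Hsp90aa1* and *Hsp90ab1*). Of 14 glutathione genes, 2 rose and 2 fell in the heart, 2 rose and 2 fell in the kidney, and 3 rose and 3 fell in the tail. Of the 11 other AHR targets, 5 rose and 3 fell in the heart, 4 rose and 1 fell in the kidney and 4 rose and 2 fell in the tail, and of all called genes 66.3%, 64.7% and 66.6% were higher in these organs.

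**Figure D5:**
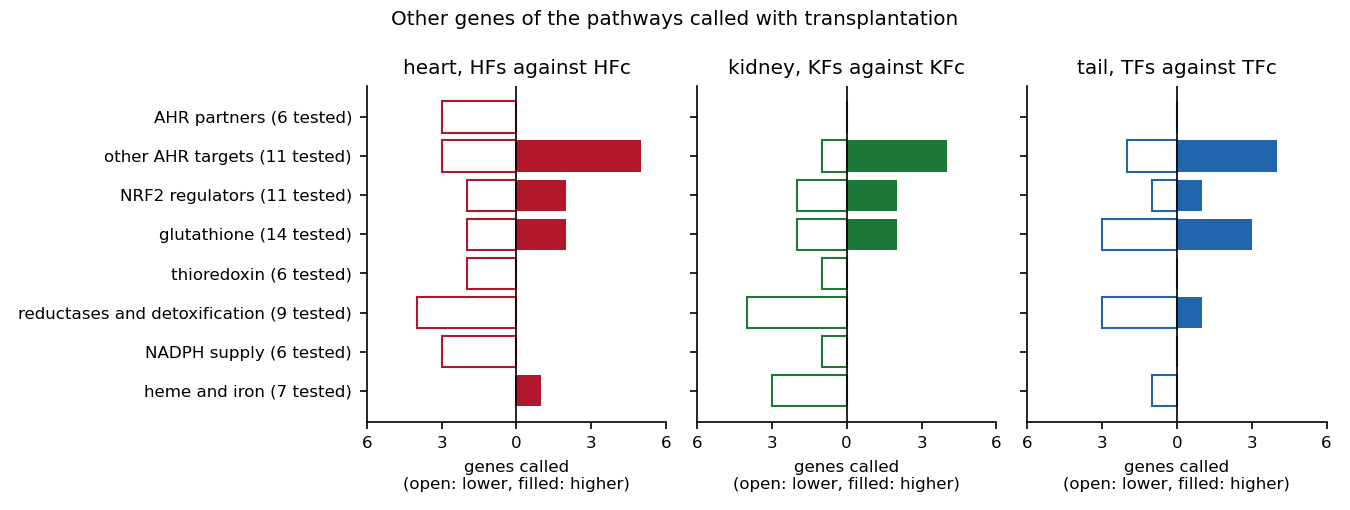
Number of other pathway genes called in each list (horizontal axis, filled bars to the right for higher, open bars to the left for lower in transplanted cells) in heart, kidney and tail, with the number tested beside each list. The other AHR targets have 5, 4 and 4 genes called higher, and the reductases and detoxifying enzymes 4, 4 and 3 called lower.

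Of the 3 listed small MAF genes, whose products pair with NRF2 or BACH1, *Mafk* and *Maff* were among the largest falls. *Mafk* was at 117, 119 and 122 CPM in HFc and 16.8, 20.2 and 22.7 CPM in HFs, and it fell by 2.57 on the log2 scale (SE 0.16, edgeR adjusted p = 9.23e-09). In the kidney *Mafk* was at 84.2, 87.7 and 91.4 CPM in KFc and 15.5, 11.9 and 20.4 CPM in KFs and fell by 2.46 (SE 0.16, edgeR adjusted p = 2.12e-08). *Maff* fell by 2.42 in the heart (SE 0.20, edgeR adjusted p = 1.22e-07), from 33.3, 36.1 and 32.2 CPM to 5.71, 4.98 and 8.24 CPM, and by 1.73 in the tail (SE 0.19, edgeR adjusted p = 5.65e-06), from 38.0, 41.1 and 35.6 CPM to 14.1, 11.6 and 8.82 CPM. Both were thus lower in every transplanted library shown than in any cultured one of the same organ. *Mafg*, the remaining one, had log2 fold changes of -0.34, -0.01 and -0.11 in heart, kidney and tail and was not called (edgeR adjusted p = 0.0765, 0.968 and 0.613).

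*Gsta4*, the glutathione transferase that clears the lipid peroxidation product 4-hydroxynonenal, had the largest fall of the listed genes in 2 organs. It was at 79.9, 68.7 and 71.3 CPM in KFc and 2.51, 1.54 and 2.81 CPM in KFs (log2 fold change -5.01, SE 0.22, edgeR adjusted p = 5.85e-10). In the tail it was at 54.7, 48.0 and 52.0 CPM in TFc and 3.69, 5.59 and 5.30 CPM in TFs (-3.40, SE 0.20, edgeR adjusted p = 1.9e-08). Heart cells held between 0.44 and 1.02 CPM in both states. *Slc48a1*, the heme transporter HRG1, fell in the kidney from 118, 119 and 111 CPM to 23.4, 17.9 and 25.3 CPM (-2.38, SE 0.10, edgeR adjusted p = 5.68e-10). *Ereg*, which encodes the growth factor epiregulin, fell in the heart from 135, 134 and 121 CPM to 27.4, 23.5 and 33.2 CPM (-2.21, SE 0.16, edgeR adjusted p = 4.89e-08). *Aldh3a1*, an aldehyde dehydrogenase and AHR target, fell in the tail from 2.40, 3.14 and 2.32 CPM to 0.856, 0.682 and 1.44 CPM (-1.39, SE 0.51, edgeR adjusted p = 0.0441).

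The largest rises were in other AHR targets and in glutathione genes. *Selenbp1*, a selenium-binding methanethiol oxidase, rose in HFs to 24.6, 62.8 and 71.0 CPM from between 0.590 and 0.812 CPM (log2 fold change 6.17, SE 0.72, edgeR adjusted p = 4.03e-06), in KFs to 25.8, 20.1 and 3.57 CPM from between 0.233 and 0.783 CPM (5.19, SE 0.73, edgeR adjusted p = 3.49e-05) and in TFs to 22.2, 8.77 and 11.2 CPM from between 1.07 and 2.19 CPM (3.09, SE 0.63, edgeR adjusted p = 0.00128). *Serpinb2*, the plasminogen activator inhibitor of inflamed tissue, rose in KFs to 116, 380 and 219 CPM from between 0.964 and 1.16 CPM (7.80, SE 0.65, edgeR adjusted p = 2.33e-07) and in HFs to 13.6, 10.3 and 22.9 CPM (5.19, SE 0.69, edgeR adjusted p = 1.3e-05). *Ugt1a6b*, a glucuronosyltransferase that shares sequence with *Ugt1a6a* and so may share its reads, rose to 4.75, 6.74 and 10.1 CPM in HFs (4.96, SE 0.57, edgeR adjusted p = 3.16e-06) and to 5.83, 4.36 and 6.19 CPM in TFs (4.42, SE 0.55, edgeR adjusted p = 1.97e-05). *Gsta2*, a member of a transferase family with near-identical copies, rose to 4.44, 0.636 and 1.95 CPM in TFs (3.13, SE 0.98, edgeR adjusted p = 0.02), and *Mgst2* rose to 1.62, 1.63 and 1.92 CPM in KFs (3.08, SE 0.31, edgeR adjusted p = 1.23e-06).

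Markers of the host kidney moved with transplantation too. The sum of 10 proximal tubule markers was 22.5 to 25.0 CPM in HFc and 118 to 1166 CPM in HFs, and 19.5 to 21.8 CPM in TFc and 136 to 318 CPM in TFs. In KFc it was 103 to 111 CPM and in KFs 60.1 to 124 CPM, and most of the KFc sum was *Lrp2*. That gene averaged 96.5 CPM in KFc and 41.0 CPM in KFs. At an edgeR adjusted p under 0.05 and a log2 fold change above 1, 8 of the 10 markers were higher in KFs than in KFc (all genes 14.7%). All 10 were above 3 counts in every library of the transplanted groups, whereas 6 in HFc, 6 in KFc and 5 in TFc were at or under 3 counts in every library. HFs replicate 2 had the highest tubule sum, 1166 CPM. It had *Gsta2* at 5.77 CPM against 1.2 and 1.97 CPM in the other HFs libraries, and its *Selenbp1* level lay between theirs. In TFs, replicate 1 had the highest tubule sum (318 CPM), *Selenbp1* (22.2 CPM) and *Gsta2* (4.44 CPM). Replicate 1 was also the highest for each of these in KFs, at 124, 25.8 and 1.13 CPM. The sum of 6 distal nephron markers was 0.182 to 0.846 CPM in HFc, 0.0746 to 0.366 CPM in KFc and 0.118 to 0.326 CPM in TFc, and 5 of the 6 did not pass 3 counts in any cultured library of a group. It was 12.02 to 82.9 CPM in HFs, 13.7 to 23.9 CPM in KFs and 20.4 to 65.3 CPM in TFs. Markers of red blood cells had no count in cultured libraries and summed to 0.132 to 43.7 CPM in HFs, 0.120 to 8.85 CPM in KFs and 2.68 to 9.50 CPM in TFs. The part of tubule, distal nephron or red cell RNA in these rises was not tested.

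Finally, the genes whose log2 CPM followed 4 of the 10 most closely over the 18 libraries were listed, as a description, with the Pearson correlation; the points share their libraries and 6 group means. For *Cyp1a1* they were *B130055M24Rik* (0.95), *Nmnat2* (0.93) and *Galnt9* (0.93), the last at 10.1 CPM on average in TFc and at most 0.145 CPM in the other groups. For *Ahrr* they were *Tjp1*, *Sbspon* and *Atp12a* (0.96 in each), with *Atp12a* at 36.1 CPM in TFc and 1.71 CPM in TFs. For *Nqo1* they were *Ube3b* (0.98), *Maoa* (0.97) and *Mustn1* (0.97), and *Mustn1* went from 37.2 CPM in KFc to 1.53 CPM in KFs. For *Hmox1* they were *Cma1* (0.96), the mast cell chymase, *Hspb6* (0.94) and *Fzd7* (0.94), of which *Cma1* stayed at or under 0.610 CPM on average in all groups.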

How the data were processed

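The 18 stranded total RNA libraries were read from one end over 75 bases. The authors aligned trimmed reads with RSEM and Bowtie2, using strand, and deposited expected counts per gene as whole numbers without normalization. The methods name GRCm38, whereas the submitters' processing notes name mm9, Bowtie and RSEM, so positions here come from GENCODE vM21 (GRCm38) and not from the table. Symbols were found for 37607 of 38924 identifiers, and the other 1317 held 0.277% of counts. All 18 columns were matched to a library by the description line of the sample, and group and replicate were taken from its title. The column of KFs replicate 3 was named Kidney-Fibros, without the replicate number of its title.

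One edgeR quasi-likelihood model (edgeR 4.0.16 in R 4.3.3, with filterByExpr and TMM) had a coefficient for each of the 6 groups, and p-values were adjusted by Benjamini-Hochberg over 16577 genes. Transplanted cells were compared with cultured cells at an adjusted p of 0.05 and a log2 fold change of 1 in either direction, and organs and changes between organs at the adjusted p alone. Levels are CPM on TMM-scaled library sizes, and the SE of a log2 fold change is its absolute value over the root of the F statistic. The fit was tested on simulated data. The 10 genes and the gene lists were chosen with earlier results of these data known. Named are the 10 genes, *Arnt*, *Nfe2l2*, *Keap1* and *Bach1*, the 3 largest rises and falls among other called pathway genes in each organ, and the 3 genes most like *Cyp1a1*, *Ahrr*, *Nqo1* and *Hmox1*, with a prior count of 2 in log2 CPM. Other genes in the summary of the lists, and *Adgre1*, *Ptprc*, *Itgam*, *Fcgr1* and *Mafg*, were named after their values were seen. Promoter windows were RefSeq's, and those of *Ahr* and *Hmox1* were not analysed here. Alternatives were DESeq2 1.42.0, other scalings, filters and thresholds, the replicate number as a block, only the groups compared, and each library left out. Figures were drawn with matplotlib 3.10.9.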

Additional observations from a re-analysis of the deposited data

Results flagged for a closer look

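Between heart and tail the change with transplantation was called different for 6 of the 10 genes (all genes 22.8%). The calls were made by an edgeR interaction contrast at an adjusted p under 0.05. Between kidney and tail there were 3 (all genes 11.1%) and between heart and kidney 4 (all genes 26.2%), all among these 6. Because the genes were chosen on these values, the differences are a description. The log2 fold change in the heart minus that in the tail was 2.90 (SE 0.40) for *Ahr*, 4.13 (SE 0.37) for *Ahrr*, 1.32 (SE 0.33) for *Cyp1b1*, 2.07 (SE 0.26) for *Tiparp*, 1.12 (SE 0.29) for *Nqo1* and 1.87 (SE 0.20) for *Hmox1*. For *Nqo1* and *Hmox1* the positive value means a smaller fall in the heart (-1.58 and -0.17) than in the tail (-2.70 and -2.04). Kidney minus tail was 2.38 (SE 0.35) for *Ahrr*, 1.65 (SE 0.26) for *Tiparp* and -1.35 (SE 0.29) for *Nqo1*, which was further below its cultured level in the kidney. Heart minus kidney was 1.71 (SE 0.40) for *Ahr*, 1.75 (SE 0.39) for *Ahrr*, 2.47 (SE 0.29) for *Nqo1* and 1.47 (SE 0.20) for *Hmox1*. The kidney values include KFs replicate 3, whose sex-linked genes went against its label. Groups of 3 libraries were not searched for outlying values.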

How the results depend on the processing

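The number of the 10 genes called in the heart stayed between 6 and 8. No called log2 fold change of the 10 between transplanted and cultured cells turned its sign under any alternative. Without a limit on the log2 fold change, 7 of the 10 were called in the kidney and 8 in the tail, 37 other pathway genes fell in the heart, 14 rose and 32 fell in the kidney, and 27 fell in the tail. With only the 2 groups compared in the fit, 8 genes were called between HFc and KFc, 3 between KFs and TFs and 1 between HFs and KFs. A limit of 1 on the log2 fold change left 2 genes between HFs and KFs. With single libraries left out, the counts ranged from 4 to 7 between HFs and KFs, with 7 when KFs replicate 1 was left out, and from 3 to 5 for the kidney and tail change, with 5 without KFs replicate 3. Scaling by library size alone moved the median log2 fold change of all genes from -0.03 to -0.25 between HFs and TFs and from -0.04 to -0.25 between HFs and KFs, and under it and under DESeq2's size factors 0 of the called differences of the 10 genes, between states or organs, changed sign. The causes were not tested, beyond the fewer libraries or the other limit that each alternative itself brings. Same-numbered libraries did not deviate together (correlations from -0.139 to 0.0792, 0 of them over 0.1), so the numbers were not taken as pairs. With the replicate block 6, 4 and 4 of the 10 genes were called in heart, kidney and tail, as without it. With 3 libraries a group and between 17 and 25 counts of *Ahrr* in HFc and almost none of *Cyp1a1* outside TFc, small differences of these genes in heart and kidney were not detectable at this depth.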
